A study of Arabidopsis thaliana with 18 samples.

Results

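Roots of wild-type Arabidopsis thaliana (WT) given 150 mM NaCl were compared with WT roots given 0 mM NaCl, across all genes. The comparison rests on 5 libraries, 3 at 0 mM (libraries 1, 3 and 4) and 2 at 150 mM (libraries 1 and 2), of 18 in the series. The remaining libraries come from the isoprene-emitting lines C4 and B2, with 3 libraries each at 0 and 150 mM. They carry a Eucalyptus globulus isoprene synthase under the RBCS1A promoter, which WT lacks. They are used here for the shared estimate of spread and for 1 comparison at the end. WT library 2 at 0 mM was left out, because it differed from library 1 by less than the sampling noise, with equal counts in 24515 of 24532 genes, and both were counted as 1 sample. The labels describe root RNA, genotype and NaCl concentration. The protocols in the labels describe NaCl treatments at concentrations other than 150 mM, for growth and emission assays, and an empty-vector line as the control, whereas the libraries used here are labelled WT and 150 mM NaCl. Plant age, duration of the treatment and growth medium of the 150 mM libraries were not stated in these sources.

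Sodium chloride stresses roots in several ways. It draws water from the cells, and sodium and chloride that enter the cytosol disturb potassium nutrition and enzymes. Roots respond to the water deficit largely through abscisic acid (ABA). ABA binds receptors of the PYR/PYL/RCAR family, the receptor complex inhibits clade A protein phosphatases 2C, and the SnRK2 kinases released from these phosphatases activate bZIP factors that bind the ABA response element (ABRE, core ACGTG) in promoters. Sodium itself is handled by a separate route, in which the calcium sensor SOS3 and the kinase SOS2 activate the plasma membrane sodium/proton antiporter SOS1, while HKT1 retrieves sodium from the xylem.

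The 5 WT libraries held 74851635 to 91527683 counted reads, and 21367 genes passed the filter on low counts. Levels are given below in CPM (read counts scaled to a common library total), on library sizes scaled by the trimmed mean of M-values, always in the order of 0 mM libraries 1, 3 and 4 and then 150 mM libraries 1 and 2. Changes are log2 fold changes of 150 over 0 mM ± SE. A gene is called at an adjusted p under 0.05, and where leaving out 1 WT library ended the call of a named gene or moved its fold change by over 1.5 times, the value without that library closes the paragraph. Separate plants for each library are not stated in the labels, and p-values therefore reflect spread among libraries that may be technical. In whole roots, fewer cells of a type and less RNA per cell cannot be told apart. The 12 defining root markers were detected in every WT library, with none at 0. Green shoot markers summed to 126.9, 158 and 338.6 CPM at 0 mM and 349.5 and 449.1 CPM at 150 mM, with 3 of 16 at 0 in a library. Of the 14 tested, 3 were called higher at 150 mM and 0 lower (median log2 fold change 0.77). The level of MRD1, a gene that separates WT from both lines in nearly all other libraries, was 2.06, 0.0965 and 0.418 CPM in the 0 mM libraries and 1.72 CPM in 150 mM library 1. In 150 mM library 2 it was 33.4 CPM, within the 32.8 to 44.0 CPM of the C4 and B2 libraries other than B2 0 mM library 3 (0.0499 CPM). The library labelled WT 150 mM library 2 therefore goes against its label at this gene, and most results below are given with and without it. The library labelled B2 0 mM library 3 goes against its label at MRD1 and also at ANNAT3, an annexin gene. It held 96.8 CPM of ANNAT3, against 1.08 and 1.36 CPM in the other B2 controls and 89.4 to 101.6 CPM in the WT controls. WT 150 mM library 2 held 76 CPM of ANNAT3, and WT 150 mM library 1 held 177 CPM. The C4 libraries held 59.3 to 179.6 CPM, so this gene does not separate WT from C4.

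Salt changed the levels of 3555 of 21367 genes (16.6%) in WT roots at an adjusted p under 0.05 (edgeR quasi-likelihood test, Benjamini-Hochberg adjustment). Of these, 1984 genes (9.29%) were higher and 1571 (7.35%) were lower at 150 mM. Counts for the gene lists below are to be read against these shares. At least 2-fold changes were found for 954 higher genes (4.46%) and 697 lower genes (3.26%). The largest increases exceeded the largest decreases in number, with 159 genes at least 8-fold higher and 61 at least 8-fold lower, and 51 against 18 at 32-fold. The median log2 fold change over all genes was near 0 (-0.004149). The libraries of the groups did not overlap in 3540 of the called genes and in 9451 of all genes tested (44.2%).

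The 2 salt libraries did not move equally far. The median log2 ratio of the higher genes to the 0 mM mean was 1.09 in library 1 and 0.86 in library 2, and that of the lower genes was -1.08 and -0.76. Library 1 lay farther from the 0 mM mean in 1558 of the 1984 higher and 1260 of the 1571 lower genes. Without library 1, 251 genes (1.15%) were called higher and 79 (0.363%) lower, 330 in all. Without library 2, 1806 (8.3%) were higher and 1669 (7.67%) lower, 3475 in all. In a fit of the WT libraries alone, 600 (2.89%) and 392 (1.89%) were called. The controls also had an order: 0 mM library 4 held the higher genes at a median log2 ratio of 0.22, against -0.17 in library 1 and -0.05 in library 3, and without library 4 4540 genes were called. Without 0 mM library 1 the count was 1761. The genes at least 2-fold higher took 2.09%, 2.52% and 3.43% of all transcripts, counted per gene length as TPM, at 0 mM and 10.7% and 7.76% at 150 mM. This share is a description, since the same libraries chose the genes.

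**Figure D1:**
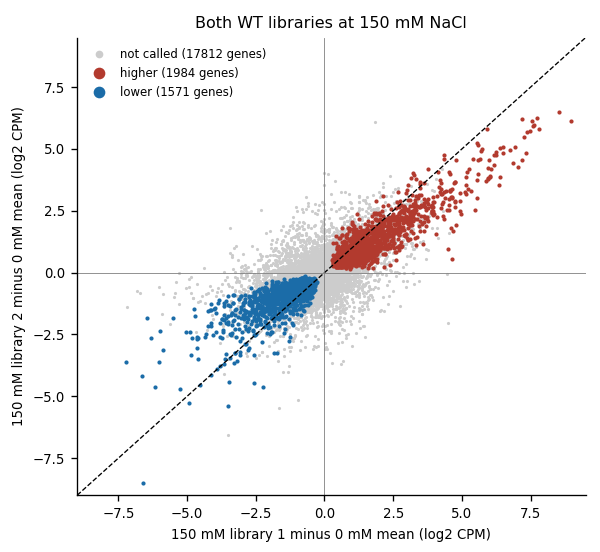
Log2 CPM of each gene in WT 150 mM library 1 (x axis) and library 2 (y axis) minus the mean of the 3 WT 0 mM libraries, with red points for the 1984 genes called higher, blue for the 1571 called lower, grey for the rest and a dashed line of equal change. The called genes lie in the upper right and lower left, and most lie farther out along the axis of library 1.

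The largest increases included genes of desiccation protection. By the widest gap between the closest libraries of the groups, the 12 leading genes included 4 late embryogenesis abundant (LEA) family proteins, which are hydrophilic proteins that protect membranes and enzymes from drying. LEA7 (chr1:19619724-19621534) held 0.643, 3.5 and 6.68 CPM at 0 mM and 535 and 193 CPM at 150 mM (log2 fold change 6.66 ± 0.91, adjusted p = 0.00120). AT3G17520, a LEA family protein, held 0.107, 0.643 and 0.621 CPM at 0 mM and 64.2 and 19.9 CPM at 150 mM (log2 fold change 6.50 ± 0.73, adjusted p = 0.000602). In both genes the lower of the salt libraries stood far above the highest control, which follows from the choice by gap. LEA4-5 went from 1.15 to 9.06 CPM at 0 mM to 550 and 162 CPM (6.20 ± 0.95), and AT3G15670 from 0.188 to 1.20 CPM to 94.0 and 29.7 CPM (6.73 ± 1.0). AT3G03341, annotated as a cold-regulated protein, held 0.107, 0.354 and 0.391 CPM at 0 mM and 49.4 and 14.7 CPM at 150 mM (log2 fold change 6.80 ± 0.87, adjusted p = 0.000982). LEA7 moved to 5.74 without 150 mM library 1 and 7.44 without 0 mM library 4. AT3G17520 moved to 5.41 without 150 mM library 1 and 7.12 without 150 mM library 2. AT3G03341 moved to 5.67 without 150 mM library 1 and 7.44 without 150 mM library 2. LEA4-5 moved to 5.06 without 150 mM library 1, 6.84 without 150 mM library 2 and 7.01 without 0 mM library 4. AT3G15670 moved to 5.67 without 150 mM library 1, 7.35 without 150 mM library 2 and 7.74 without 0 mM library 4.

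LTI78 and LTI65, also known as RD29A and RD29B, are the standard reporters of the drought and ABA response and lie side by side on chromosome 5. LTI78 (chr5:21240717-21243644) held 27.5, 49.7 and 102 CPM at 0 mM and 2712 and 1557 CPM at 150 mM (log2 fold change 5.16 ± 0.64, adjusted p = 0.000900). LTI65 (chr5:21237021-21239531) held 0.375, 0.708 and 4.72 CPM at 0 mM and 207 and 78.2 CPM at 150 mM (log2 fold change 6.22 ± 1.03, adjusted p = 0.00245). The groups did not overlap in either gene, as the choice by gap required, and 0 mM library 4 was the highest control in both. GolS2, a galactinol synthase that starts the raffinose series of protective sugars, held 0.241, 0.708 and 4.26 CPM at 0 mM and 179 and 56.7 CPM at 150 mM (log2 fold change 6.10 ± 0.96, adjusted p = 0.00202). The membrane protein gene TSPO, the ABA-responsive dehydrin RAB18 (AT5G66400), the phosphatase gene HAI3 and the MYB factor gene MYB121 completed the 12. They rose by 5.49 ± 0.78, 5.46 ± 0.76, 6.48 ± 0.80 and 5.30 ± 0.98 on the log2 scale. MYB121 lost its call without 150 mM library 1, at a log2 fold change of 4.74. LTI78 and MYB121 moved to 5.79 and 7.88 without 0 mM library 4. LTI65 moved to 5.35 without 150 mM library 1 and 8.02 without 0 mM library 4. GolS2 moved to 5.04 without 150 mM library 1, 6.72 without 150 mM library 2 and 7.92 without 0 mM library 4. TSPO moved to 4.58 without 150 mM library 1. RAB18 moved to 4.29 without 150 mM library 1 and 6.12 without 150 mM library 2. HAI3 moved to 4.61 without 150 mM library 1 and 7.28 without 150 mM library 2.

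**Figure D2:**
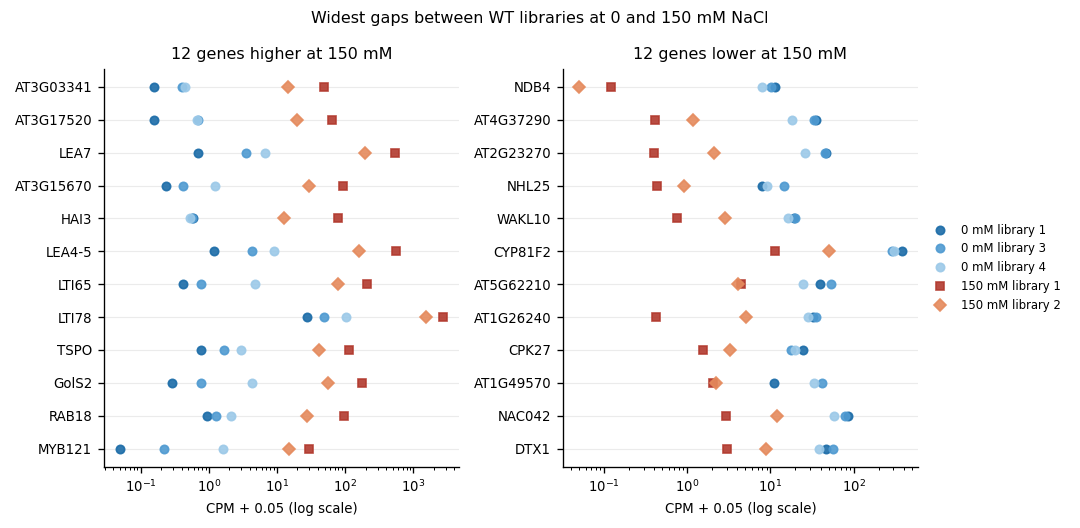
CPM on a log scale in each WT library for the 12 genes leading in each direction, with circles for the 3 libraries at 0 mM and a square and a diamond for libraries 1 and 2 at 150 mM; 0.05 CPM was added so that 0 can be drawn. In the higher genes the 150 mM library 1 lies above library 2 throughout. The groups overlap in no gene, which follows from choosing the genes by the gap between the groups.

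Because ABA-responsive genes are read through ABREs, the 250 bases before the annotated gene start were taken from the TAIR10 reference (NCBI RefSeq) and searched on both strands for ACGTG. Of the 12 leading higher genes, LEA7 and LTI65 held the most runs, 4 each, and RAB18 held 3, as did AT3G15670 and LEA4-5. The windows of LEA7, LTI65 and RAB18 are shown for these matches, and that of LTI78 because it holds no ACGTG but several CCGAC, the core of the dehydration-responsive element (DRE) bound by DREB and CBF factors. Capitals mark ACGTG or its reverse complement CACGT in the lines of LEA7, LTI65 and RAB18, and CCGAC or GTCGG in that of LTI78. Each reads 5′ to 3′ on the strand of the gene, and overlapping matches are counted as 1 run.
LEA7 (chr1:19619474-19619723, plus strand): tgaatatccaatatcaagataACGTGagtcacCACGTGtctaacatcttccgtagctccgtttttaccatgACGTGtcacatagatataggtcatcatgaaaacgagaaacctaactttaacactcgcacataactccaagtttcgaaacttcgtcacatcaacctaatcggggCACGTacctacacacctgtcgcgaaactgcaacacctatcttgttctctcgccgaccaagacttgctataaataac
LTI65 (chr5:21236771-21237020, plus strand): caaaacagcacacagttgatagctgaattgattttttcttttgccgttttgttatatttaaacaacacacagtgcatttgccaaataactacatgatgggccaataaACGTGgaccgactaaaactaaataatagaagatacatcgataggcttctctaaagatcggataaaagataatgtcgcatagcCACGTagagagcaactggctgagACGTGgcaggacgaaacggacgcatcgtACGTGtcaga
RAB18 (chr5:26519448-26519697, minus strand): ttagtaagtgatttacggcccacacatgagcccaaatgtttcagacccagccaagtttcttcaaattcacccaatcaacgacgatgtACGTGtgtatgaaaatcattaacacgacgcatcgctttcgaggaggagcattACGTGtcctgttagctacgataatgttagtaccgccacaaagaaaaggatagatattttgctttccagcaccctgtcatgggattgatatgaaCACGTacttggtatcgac
LTI78 (chr5:21240467-21240716, plus strand): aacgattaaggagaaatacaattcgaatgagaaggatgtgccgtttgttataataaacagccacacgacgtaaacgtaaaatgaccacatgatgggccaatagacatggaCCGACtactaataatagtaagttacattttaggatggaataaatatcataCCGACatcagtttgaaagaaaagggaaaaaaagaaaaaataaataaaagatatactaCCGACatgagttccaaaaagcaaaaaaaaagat
LEA7 and LTI65 each held 4 runs of ACGTG and RAB18 held 3. Of the 12 leading higher genes 8 had ACGTG, 9 had CCGAC, and 1, MYB121, had neither in this window. Bases farther upstream and those after the annotated start were not searched. The lack of a match in a window, as for ACGTG in LTI78, therefore does not show that the promoter lacks the motif.

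Over all 21313 windows that could be read, 24.12% held ACGTG. The share was 34.58% in the genes called higher, 40.13% in those at least 2-fold higher and 54.43% in those at least 8-fold higher, against 24.14% in the genes called lower. More than 1 run was found in 5.546% of all windows and 31.65% of those of genes at least 8-fold higher. The longer form ACGTGTC was present in 4.157% of all windows, 10.52% of those called higher and 2.166% of those called lower, and the palindrome CACGTG, which holds ACGTG on both strands, in 7.334%, 14.76% and 4.713%. CCGAC was found in 12.67% of all windows, 16.78% of those called higher and 24.05% of those at least 8-fold higher. The share with ACGTG among genes called higher was 37.45% without 150 mM library 1 and 34.63% without library 2. A match is a sequence of letters and was not tested as a binding site.

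**Figure D3:**
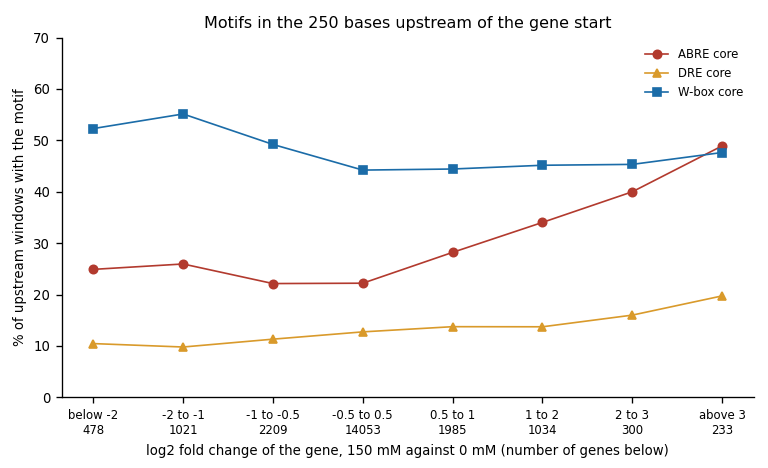
Percent of genes whose 250 bases before the gene start hold the core of the ABRE, the DRE or the W-box on either strand (y axis) by bin of log2 fold change in WT roots (x axis). The share with the ABRE core ACGTG stays between 22.1% and 28.2% up to a log2 fold change of 1 and reaches 48.9% above 3. That with the W-box core is 52.3% below -2, 55.1% from -2 to -1, 44.2% around 0 and 47.6% above 3.

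The ABA lists of synthesis and catabolism, of phosphatases, and of kinases with bZIP factors held genes called higher and 0 called lower. Of 13 tested genes of ABA synthesis and catabolism, 6 were higher and 0 lower (median log2 fold change 1.0; 1 higher without 150 mM library 1 and 7 without library 2). NCED3, whose enzyme cleaves carotenoids in the rate-limiting step of stress-induced ABA synthesis, held 6.49, 15.4 and 20.6 CPM at 0 mM and 202 and 65.4 CPM at 150 mM (log2 fold change 3.24 ± 0.54, adjusted p = 0.00240). ABA1, the zeaxanthin epoxidase upstream of it, held 18, 23.3 and 47.1 CPM at 0 mM and 122 and 100.0 CPM at 150 mM (log2 fold change 1.92 ± 0.34, adjusted p = 0.00272) and was called with any 1 WT library left out. Salt library 1 held far more NCED3 than library 2, while ABA1 was alike in both. AAO3, the aldehyde oxidase of the last step, rose by 1.0 ± 0.19, and NCED2 rose by 2.89 ± 0.64. The other 2 called members encode ABA 8'-hydroxylases, which degrade the hormone, and are named here after their values were seen. CYP707A1 rose by 1.54 ± 0.34 and CYP707A4 by 1.83 ± 0.57. NCED3, AAO3, NCED2 and CYP707A1 lost their calls without 150 mM library 1, at log2 fold changes of 2.21, 0.94, 1.90 and 1.01. CYP707A4 lost its call without 150 mM library 1, 150 mM library 2, 0 mM library 1 or 0 mM library 3, at 1.73, 1.94, 1.60 and 1.62. NCED3 moved to 3.85 without 150 mM library 2. NCED2 moved to 3.48 without 150 mM library 2 and 3.55 without 0 mM library 4.

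Receptors went both ways. Of 11 tested, 2 were higher and 3 lower (median -0.41), against 1 and 0 without 150 mM library 1 and 2 and 1 without library 2. PYL7 held 4.25, 2.98 and 8.35 CPM at 0 mM and 41.0 and 19.6 CPM at 150 mM (log2 fold change 2.55 ± 0.40, adjusted p = 0.00160), and RCAR1, also called PYL9, rose by 0.93 ± 0.22. PYL4 held 207, 83.5 and 94.5 CPM at 0 mM and 26.8 and 53.0 CPM at 150 mM (log2 fold change -1.69 ± 0.41, adjusted p = 0.0142). PYL6 fell by 2.73 ± 0.86. PYL1, the remaining called member, named after its values were seen, fell by 0.41 ± 0.14. In PYL4 and PYL6 0 mM library 1 stood well above the other controls. RCAR1 lost its call without 150 mM library 1, at a log2 fold change of 0.75. PYL4 lost its call without 150 mM library 1 or 0 mM library 1, at -1.28 and -1.16. PYL6 lost its call without 150 mM library 1, 150 mM library 2 or 0 mM library 1, at -2.1, -3.86 and -1.48. PYL1 lost its call without 150 mM library 1, 150 mM library 2, 0 mM library 1 or 0 mM library 3, at -0.38, -0.44, -0.35 and -0.36. PYL7 moved to 1.92 without 150 mM library 1.

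Clade A PP2C phosphatases, the negative regulators that ABA-bound receptors block, rose in 8 of 9 tested genes (median 2.117; 4 without 150 mM library 1 and 8 without library 2), and their summed level went from 211.3, 300.2 and 358.1 TPM to 1695 and 866.6 TPM. HAI1 (chr5:23894404-23896939) held 6.64, 24.7 and 32.4 CPM at 0 mM and 431 and 142 CPM at 150 mM (log2 fold change 3.75 ± 0.66, adjusted p = 0.00312). HAI3, among the leading genes above, held 0.536, 0.515 and 0.486 CPM at 0 mM and 79.1 and 12.6 CPM at 150 mM. PP2CA held 54.0, 57.4 and 74.7 CPM at 0 mM and 354 and 184 CPM at 150 mM (log2 fold change 2.117 ± 0.33, adjusted p = 0.00153), ABI2 rose by 2.36 ± 0.37 and HAB1 by 1.86 ± 0.28. PP2CA, ABI2 and HAB1 remained called with any 1 WT library left out. Of the 9, AHG1 was not called (0.139 to 0.711 CPM in the 5 libraries). HAI1 lost its call without 150 mM library 1, at a log2 fold change of 2.74. HAI1 moved to 4.36 without 150 mM library 2.

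On the list of SnRK2 kinases and bZIP factors 12 of 15 genes were higher and 0 lower. The median was 1.09, with 0.98 without 150 mM library 1 and 1.23 without library 2. Whether each listed kinase acts in the ABA pathway was not tested. ABI5, the bZIP factor best known from germinating seeds, was low in the controls and held 1.0, 0.750 and 1.19 CPM at 0 mM and 13 and 4.39 CPM at 150 mM (log2 fold change 3.15 ± 0.36, adjusted p = 0.000475). ABF2, a bZIP factor of vegetative tissue, held 32.5, 33.7 and 39.7 CPM at 0 mM and 152 and 92.4 CPM at 150 mM (log2 fold change 1.79 ± 0.24, adjusted p = 0.000982). SNRK2.5, an SnRK2 kinase, held 10.9, 12.5 and 9.67 CPM at 0 mM and 25.6 and 21.0 CPM at 150 mM (log2 fold change 1.08 ± 0.16, adjusted p = 0.00110). Both ABF2 and SNRK2.5 were called with any 1 WT library left out. ABF3, a further bZIP factor, rose by 1.39 ± 0.23. ABF3 lost its call without 150 mM library 1, at a log2 fold change of 1.05. ABI5 moved to 2.16 without 150 mM library 1 and 3.74 without 150 mM library 2.

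**Figure D4:**
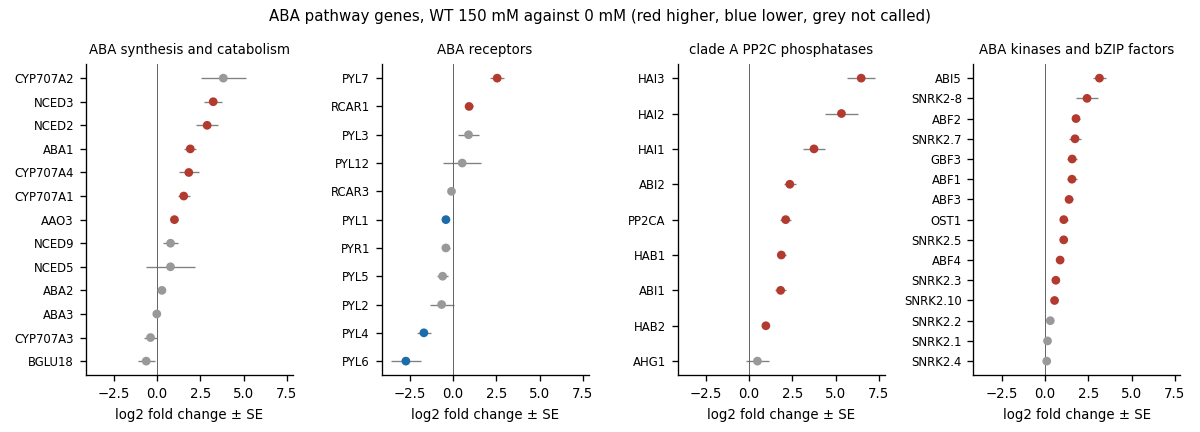
Log2 fold change (150 over 0 mM, WT) with its SE for each tested member of the ABA lists, in panels from synthesis to bZIP factors, with red points for genes called higher, blue for lower and grey for those not called. Points for the phosphatases lie between 0.49 and 6.48, while those for the receptors spread on both sides of 0.

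Downstream, the 7 dehydrins and 14 other LEA and dehydration proteins rose almost throughout. Dehydrins, which bind water and membranes, rose in 6 of 7 (median 2.72; 5 without 150 mM library 1 and 6 without library 2), and the other list in 14 of 14 (median 5.32; 11 and 13). Summed, the dehydrins took 3236, 3671 and 4711 TPM at 0 mM and 15917 and 13828 TPM at 150 mM, and the other list 1151, 1223 and 1543 TPM and 11436 and 6254 TPM. The dehydrins ERD10, LTI30 and ERD14 were abundant already in controls. ERD10 held 289, 296 and 359 CPM at 0 mM and 2897 and 2010.0 CPM at 150 mM (log2 fold change 2.96 ± 0.37, adjusted p = 0.000731). LTI30 held 93.0, 199 and 286 CPM at 0 mM and 1826 and 1409 CPM at 150 mM (log2 fold change 3.07 ± 0.42, adjusted p = 0.00107). ERD14 rose by 1.84 ± 0.28 and held 511, 475 and 652 CPM at 0 mM and 1996 and 1917 CPM at 150 mM. ERD10, LTI30 and ERD14 were called with any 1 WT library left out, and their 2 salt libraries differed by less than those of LEA7 or LTI65. KIN2, a small cold- and ABA-induced protein, rose by 2.35 ± 0.33, and LEA14 by 2.6 ± 0.36, and both held with any 1 WT library left out. RD22, a dehydration gene reached through MYC and MYB factors, rose by 2.38 ± 0.32. RD22 moved to 1.65 without 150 mM library 1.

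Transcription factors of the stress response rose in 23 of 34 genes, with 0 lower (median 1.74; 4 higher without 150 mM library 1 and 19 without library 2). MYB96, an ABA-dependent activator of wax synthesis and drought genes, held 0.536, 1.24 and 0.985 CPM at 0 mM and 18.7 and 7.17 CPM at 150 mM and had the lowest adjusted p of the list (log2 fold change 3.8 ± 0.36, adjusted p = 0.000117). HB-7 (AT2G46680), a homeodomain-leucine zipper factor induced by water deficit, held 30.3, 41.6 and 66.7 CPM at 0 mM and 359.8 and 255 CPM at 150 mM (log2 fold change 2.73 ± 0.39, adjusted p = 0.00123). RD26, a NAC factor of the ABA response, held 18.3, 22.4 and 49.7 CPM at 0 mM and 414 and 181 CPM at 150 mM (log2 fold change 3.31 ± 0.54, adjusted p = 0.00222). DREB2A, the DRE-binding factor of drought and heat, rose by 1.90 ± 0.33. Of these factors HB-7 was the most alike in the salt libraries. RD26 and DREB2A lost their calls without 150 mM library 1, at log2 fold changes of 2.59 and 1.49. MYB96 moved to 2.95 without 150 mM library 1.

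Genes of compatible solutes, on a list that holds steps of synthesis and of breakdown, went both ways. Of 25 tested genes 7 were higher and 6 lower (median 0.28; 4 and 1 without 150 mM library 1, 6 and 6 without library 2). P5CS1, the rate-limiting enzyme of proline synthesis, held 32.4, 55.5 and 72.1 CPM at 0 mM and 682 and 311 CPM at 150 mM (log2 fold change 3.22 ± 0.38, adjusted p = 0.000602). Its copy P5CS2, which serves growth more than stress, was called only without 0 mM library 4 (0.59; 0.40 ± 0.18 and adjusted p = 0.138 with all libraries), and the proline dehydrogenase gene ERD5 was not called, at 418, 407 and 1005 CPM at 0 mM and 335 and 802 CPM at 150 mM, where 0 mM library 4 and 150 mM library 2 were the highest. SUS1, a sucrose synthase, held 32.9, 47.3 and 96.1 CPM at 0 mM and 538 and 347 CPM at 150 mM (log2 fold change 2.91 ± 0.41, adjusted p = 0.00119) and was called with any 1 WT library left out. ATTPPA (TPPA), a trehalose-6-phosphate phosphatase, held 41.2, 33.3 and 24.5 CPM at 0 mM and 12.0 and 13.7 CPM at 150 mM (log2 fold change -1.36 ± 0.22, adjusted p = 0.00151) and was called with any 1 WT library left out. P5CS1, SUS1, ATTPPA and GolS2 were the list's members with the lowest adjusted p. P5CS1 moved to 2.54 without 150 mM library 1.

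Sugar transporters rose in 11 of 22 genes with 1 lower (median 1.04; 2 and 0 without 150 mM library 1, 10 and 2 without library 2). SWEET4, a sugar facilitator, was nearly absent from controls, with 0, 0.0429 and 0 CPM at 0 mM and 18.4 and 2.56 CPM at 150 mM (adjusted p = 0.000979), so no fold is given. SAG29 (SWEET15), a related facilitator known from senescing leaves, held 0.603, 0.386 and 1.11 CPM at 0 mM and 15.2 and 4.38 CPM at 150 mM (log2 fold change 3.82 ± 0.62, adjusted p = 0.00176). SUC2, the sucrose/proton symporter that loads phloem, rose by 1.55 ± 0.28, and TMT2, a tonoplast sugar importer, by 0.80 ± 0.16. Genes of sugar starvation rose in 4 of 18 (median 0.91; 0 without 150 mM library 1 and 2 without library 2). TPS11, a class II trehalose-6-phosphate synthase protein, held 10.1, 22.4 and 95.5 CPM at 0 mM and 266 and 192 CPM at 150 mM (log2 fold change 2.42 ± 0.67, adjusted p = 0.0253). By ratio, its 0 mM library 4 stood closer to the salt libraries than to 0 mM library 1. The low-energy factor bZIP1 (2.41 ± 0.59) had the same order of controls, with 2.4, 8.26 and 21.3 CPM. SUC2 and TMT2 lost their calls without 150 mM library 1, at log2 fold changes of 1.32 and 0.64. TPS11 lost its call without 150 mM library 1, 0 mM library 1 or 0 mM library 3, at 2.17, 1.96 and 2.115. bZIP1 lost its call without 150 mM library 1 or 0 mM library 3, at 2.18 and 2.25. SAG29 moved to 2.65 without 150 mM library 1 and 4.47 without 150 mM library 2. TPS11 and bZIP1 moved to 3.82 and 3.40 without 0 mM library 4.

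Among 12 tested genes of sodium transport 1 was higher (8.333%) and 0 lower, near the 9.29% higher over all genes tested. The median was 0.19, with 0.29 without 150 mM library 1 and -0.007 without library 2. SOS1 held 46.0, 40.6 and 61.5 CPM at 0 mM and 37.8 and 55.9 CPM at 150 mM (log2 fold change -0.07 ± 0.21, adjusted p = 0.856). HKT1 held 6.53, 13.2 and 13.3 CPM at 0 mM and 14.0 and 12.4 CPM at 150 mM (log2 fold change 0.26 ± 0.23, adjusted p = 0.484). The groups overlapped in both genes. NHX3, a sodium or potassium/proton antiporter of the tonoplast, was the called member (1.02 ± 0.32). The vacuolar antiporters NHX1 and NHX2 and the vacuolar proton pump AVP1 held 0.41 ± 0.19, 0.33 ± 0.14 and 0.42 ± 0.19 and did not pass (adjusted p = 0.147, 0.128 and 0.135). A miss of the threshold does not show that these genes held steady. NHX3 lost its call without 150 mM library 1, 150 mM library 2, 0 mM library 1 or 0 mM library 3, at 1.11, 0.94, 0.88 and 1.04.

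Potassium and anion channels had 2 higher (13.33%) and 0 lower of 15, against 9.29% and 7.35% over all genes tested. Their median was 0.05, with 0.18 without 150 mM library 1 and 0.02 without library 2. GORK, the outward potassium channel of root epidermis and guard cells, held 23.1, 29.5 and 34.2 CPM at 0 mM and 97.0 and 91.7 CPM at 150 mM (log2 fold change 1.71 ± 0.31, adjusted p = 0.00312) and was called with any 1 WT library left out. SLAH3, an anion channel, rose by 0.52 ± 0.17. Aquaporins, the water channels, went both ways, with 4 higher and 3 lower of 19 (median 0.23; 0 and 0 without 150 mM library 1, 3 and 3 without library 2). PIP1B, a plasma membrane aquaporin, held 892, 1131 and 1458 CPM at 0 mM and 2816 and 2634 CPM at 150 mM (log2 fold change 1.23 ± 0.24, adjusted p = 0.00425). The tonoplast aquaporin DELTA-TIP (TIP2;1) held 180.0, 153 and 119.8 CPM at 0 mM and 69.7 and 74.1 CPM at 150 mM (log2 fold change -1.07 ± 0.22, adjusted p = 0.00505). PIP1;4 rose by 0.72 ± 0.18, and PIP2E (PIP2;6) fell by 1.21 ± 0.30. PIP1B, DELTA-TIP and PIP2E lost their calls without 150 mM library 1, at log2 fold changes of 1.18, -1.03 and -0.94. SLAH3 lost its call without 150 mM library 1, 150 mM library 2, 0 mM library 1 or 0 mM library 3, at 0.46, 0.59, 0.51 and 0.45. PIP1;4 lost its call without 150 mM library 1, 0 mM library 1 or 0 mM library 3, at 0.55, 0.70 and 0.67.

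Nutrient genes were called in both directions, to be read against 9.29% higher and 7.35% lower over all genes tested. The shares called lower were 21.43% (nitrate), 15.79% (iron deficiency) and 14.29% (phosphate starvation). Those called higher were 7.143%, 5.263% and 14.29%. Of 14 genes of nitrate uptake and assimilation, 1 was higher and 3 lower. The median was -0.24, with 0.11 without 150 mM library 1 and -0.60 without library 2. The direction of this list therefore differed between the salt libraries. Summed, it took 6205, 3659 and 4753 TPM at 0 mM and 2265 and 4100 TPM at 150 mM, with library 2 within the range of the controls. NIA1, a nitrate reductase, held 790.0, 756 and 905 CPM at 0 mM and 143 and 296 CPM at 150 mM (log2 fold change -1.90 ± 0.43, adjusted p = 0.00961). NIR1, the nitrite reductase, fell by 1.45 ± 0.32, and NIA2, the other nitrate reductase, fell by 1.06 ± 0.29. Salt library 1 held the lower level of all 3. GLN1.3, a cytosolic glutamine synthetase, rose by 0.58 ± 0.19. NIA1 and NIR1 lost their calls without 150 mM library 1, at log2 fold changes of -1.47 and -0.99. NIA2 lost its call without 150 mM library 1 or 0 mM library 1, at -0.66 and -0.98. GLN1.3 lost its call without 150 mM library 1, 0 mM library 1 or 0 mM library 4, at 0.35, 0.50 and 0.51. NIA1 and NIR1 moved to -2.5 and -2.14 without 150 mM library 2.

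Of 19 genes on the iron deficiency list, 1 was higher (FER1, a storage protein gene) and 3 were lower. The median was -0.35, with 0.095 without 150 mM library 1 and -1.21 without library 2. OPT3, a phloem transporter that carries iron signals from shoot to root, held 90.3, 60.6 and 57.9 CPM at 0 mM and 14.8 and 22.4 CPM at 150 mM (log2 fold change -1.90 ± 0.30, adjusted p = 0.00145) and was called with any 1 WT library left out. FER1, the iron storage protein ferritin, held 39.0, 59.9 and 123 CPM at 0 mM and 335 and 197 CPM at 150 mM (log2 fold change 1.85 ± 0.37, adjusted p = 0.00555). The iron deficiency factor bHLH39 fell by 2.62 ± 0.61, and AT3G13610 (F6'H1), which makes iron-mobilising coumarins, fell by 2.18 ± 0.50. Of 14 phosphate starvation genes 2 were higher and 2 lower (median -0.08; 1 and 0 without 150 mM library 1, 3 and 4 without library 2). The acid phosphatase PAP17, also induced by ABA and salt, rose by 1.86 ± 0.29, and the ribonuclease RNS1 by 2.96 ± 0.62. The phosphate sensor proteins SPX3 and SPX1 fell by 2.69 ± 0.75 and 0.75 ± 0.23. SPX3 was low in every library, with 0.965, 0.772 and 0.337 CPM at 0 mM and 0.0486 and 0.165 CPM at 150 mM. FER1, bHLH39, F6'H1 and RNS1 lost their calls without 150 mM library 1, at log2 fold changes of 1.41, -2.42, -1.55 and 2.5. SPX3 and SPX1 lost their calls without 150 mM library 1, 0 mM library 1 or 0 mM library 3, at -2.07, -2.37 and -2.6 (SPX3), and -0.56, -0.63 and -0.76 (SPX1). FER1 moved to 2.43 without 0 mM library 4. F6'H1 and SPX3 moved to -3.32 and -3.78 without 150 mM library 2.

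The genes that fell most included genes of defence and the cell surface. CYP81F2, the P450 that modifies indole glucosinolates for defence, was the most abundant of the 12 leading lower genes, with 378, 291 and 305 CPM at 0 mM and 11.3 and 51.0 CPM at 150 mM (log2 fold change -3.38 ± 0.75, adjusted p = 0.00961). CPK27, a calcium-dependent protein kinase, held 24.3, 17.57 and 19.8 CPM at 0 mM and 1.52 and 3.23 CPM at 150 mM (log2 fold change -3.12 ± 0.45, adjusted p = 0.00120). Of the 12, CPK27 alone was still called without 150 mM library 1 (-2.68). NAC042, a NAC factor (JUB1) that also regulates camalexin synthesis, held 85.5, 78.7 and 57.9 CPM at 0 mM and 2.88 and 11.9 CPM at 150 mM (log2 fold change -3.33 ± 0.83, adjusted p = 0.0160). In CYP81F2 and NAC042, salt library 2 lay between the controls and salt library 1. CYP81F2 and NAC042 lost their calls without 150 mM library 1, at log2 fold changes of -2.67 and -2.64. CYP81F2, CPK27 and NAC042 moved to -4.83, -3.75 and -4.67 without 150 mM library 2.

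NDB4, an external NAD(P)H dehydrogenase of mitochondria, held 11.2, 10.1 and 7.76 CPM at 0 mM and 0.0729 and 0 CPM at 150 mM (log2 fold change -7.97 ± 1.54, adjusted p = 0.00470), and with 150 mM library 1 left out no read remained at 150 mM and the gene was no longer called. Without 150 mM library 2 its log2 fold change was -7.01. DTX1, a toxin efflux carrier, held 46.0, 56.2 and 38.3 CPM at 0 mM and 2.94 and 8.72 CPM at 150 mM (log2 fold change -3.01 ± 0.77, adjusted p = 0.0186). The wall-associated kinase-like gene WAKL10 fell by 3.39 ± 0.77, and the class III peroxidase gene AT1G49570 fell by 3.77 ± 0.77. AT1G26240, an extensin-like wall protein, fell by 3.56 ± 0.95. AT5G62210, annotated as an embryo-specific protein, fell by 3.21 ± 0.74, and NHL25, of the NDR1/HIN1-like defence family, fell by 4.07 ± 1.07. The short genes AT4G37290 and AT2G23270, which have no symbol in the files, fell by 5.29 ± 1.12 and 5.02 ± 1.13. DTX1, WAKL10, AT1G49570, AT1G26240, AT4G37290 and AT2G23270 lost their calls without 150 mM library 1, at log2 fold changes of -2.43, -2.72, -3.71, -2.67, -4.70 and -4.25. AT5G62210 lost its call without 150 mM library 1 or 150 mM library 2, at -3.28 and -3.15. NHL25 lost its call without 150 mM library 1, 150 mM library 2 or 0 mM library 3, at -3.61, -4.73 and -3.74. DTX1, WAKL10, AT1G26240, AT4G37290 and AT2G23270 moved to -3.98, -4.68, -6.39, -6.29 and -6.78 without 150 mM library 2.

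WRKY factors, the main activators of root and leaf defence genes, bind the W-box with the core TTGAC. The windows of CYP81F2 and NAC042 are shown as examples of the 4 leading lower genes with 2 runs of it, which also included AT2G23270 and CPK27. The runs are in capitals here as TTGAC or its reverse complement GTCAA.
CYP81F2 (chr5:23187590-23187839, plus strand): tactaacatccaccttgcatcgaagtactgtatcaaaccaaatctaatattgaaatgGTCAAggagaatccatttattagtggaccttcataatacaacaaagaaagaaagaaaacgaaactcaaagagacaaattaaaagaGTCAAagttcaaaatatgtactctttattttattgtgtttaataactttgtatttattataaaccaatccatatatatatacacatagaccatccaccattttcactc
NAC042 (chr2:17882637-17882886, minus strand): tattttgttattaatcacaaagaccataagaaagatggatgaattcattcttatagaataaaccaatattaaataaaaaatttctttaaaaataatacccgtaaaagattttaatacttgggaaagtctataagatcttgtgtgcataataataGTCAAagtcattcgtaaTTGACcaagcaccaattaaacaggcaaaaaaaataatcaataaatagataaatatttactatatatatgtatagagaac
Of the 12 leading lower genes 10 held TTGAC and 5 held the ABRE core. TTGAC was common everywhere, in 45.56% of all windows, 52.93% of those called lower, 54.6% of those at least 2-fold lower and 44.39% of those called higher.

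Indole glucosinolate and camalexin genes, the tryptophan-derived chemical defence of the Brassicaceae, were lower in 12 of 18, with 0 higher (median -0.69). Their summed level went from 12136, 10593 and 10134 TPM to 6841 and 6410 TPM, so both salt libraries were nearly equal and below every control. Without 150 mM library 1, 0 were called at a median of -0.73, and without library 2, 5 were lower at -0.62. IGMT1, which methylates the product of CYP81F2, held 512, 393 and 543 CPM at 0 mM and 112 and 200.5 CPM at 150 mM (log2 fold change -1.63 ± 0.30, adjusted p = 0.00310). UGT74B1, the glucosyltransferase of the glucosinolate core, held 245, 208 and 195 CPM at 0 mM and 143 and 125 CPM at 150 mM (log2 fold change -0.69 ± 0.18, adjusted p = 0.0165). GSTF10, a glutathione transferase on the list, held 1082, 1072 and 708 CPM at 0 mM and 537 and 497 CPM at 150 mM (log2 fold change -0.88 ± 0.20, adjusted p = 0.00775). IGMT1 and GSTF10 lost their calls without 150 mM library 1, at log2 fold changes of -1.27 and -0.95. UGT74B1 lost its call without 150 mM library 1, 150 mM library 2 or 0 mM library 1, at -0.80, -0.59 and -0.59.

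Immune signalling genes had 2 higher and 7 lower of 22 (median -0.51; 1 and 0 without 150 mM library 1, 1 and 11 without library 2). WRKY33, the factor that activates camalexin synthesis, held 224, 214 and 216 CPM at 0 mM and 112 and 111 CPM at 150 mM (log2 fold change -0.97 ± 0.20, adjusted p = 0.00522). Its 3 controls were close together, as were both salt libraries below them. PUB23, a ubiquitin ligase that damps immune responses, held 130.0, 98.6 and 97.0 CPM at 0 mM and 43.4 and 53.9 CPM at 150 mM (log2 fold change -1.16 ± 0.20, adjusted p = 0.00216). MPK3, an immune MAP kinase, fell by 0.75 ± 0.15, and PROPEP2, the precursor of a danger peptide, fell by 1.63 ± 0.34. WRKY33, PUB23, MPK3 and PROPEP2 lost their calls without 150 mM library 1, at log2 fold changes of -0.98, -1.01, -0.61 and -1.82.

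Flavonoid genes were lower in 3 of 10, with 0 higher (median -0.53; 1 lower with either salt library left out). TT4, the chalcone synthase that opens the flavonoid branch, held 1050.0, 1103 and 798 CPM at 0 mM and 361 and 279 CPM at 150 mM (log2 fold change -1.62 ± 0.34, adjusted p = 0.00585). FLS1, the flavonol synthase, fell by 1.82 ± 0.40, and TT5, the chalcone isomerase, fell by 1.57 ± 0.38. Salt library 2 held the lower level of these 3 genes, unlike most other lower genes. Of 20 lignin and general phenylpropanoid genes 3 were higher and 1 lower (median -0.08; 0 and 0 without 150 mM library 1, 3 and 1 without library 2). PAL4, an entry enzyme of the pathway, held 102, 115 and 142 CPM at 0 mM and 264 and 243 CPM at 150 mM (log2 fold change 1.08 ± 0.24, adjusted p = 0.00857). 4CL3, the ligase that feeds flavonoids, held 31.7, 44.9 and 25.1 CPM at 0 mM and 9.95 and 9.27 CPM at 150 mM (log2 fold change -1.82 ± 0.42, adjusted p = 0.0103). CAD5, of monolignol synthesis, rose by 0.77 ± 0.20, and CCR2 (AT1G80820) by 0.69 ± 0.17. TT4, PAL4 and CCR2 lost their calls without 150 mM library 1, at log2 fold changes of -1.82, 1.02 and 0.48. TT5 lost its call without 150 mM library 2, at a log2 fold change of -1.16. FLS1 and 4CL3 lost their calls without 150 mM library 1 or 150 mM library 2, at -2.1 and -1.57 (FLS1), and -1.88 and -1.75 (4CL3). CAD5 lost its call without 150 mM library 1, 0 mM library 1 or 0 mM library 3, at 0.69, 0.77 and 0.74.

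Suberin, the waxy polymer that seals endodermal cells against water and ions, had 8 higher and 0 lower genes of 20 (median 0.54; 0 without 150 mM library 1 and 9 without library 2). GPAT5, an acyltransferase of suberin synthesis, held 79.0, 50.0 and 69.1 CPM at 0 mM and 202 and 126 CPM at 150 mM (log2 fold change 1.31 ± 0.28, adjusted p = 0.00661). Its relative GPAT7 held 39.4, 31.6 and 42.3 CPM at 0 mM and 186 and 78.5 CPM at 150 mM (log2 fold change 1.81 ± 0.37, adjusted p = 0.00603). MYB41, a factor that switches on suberin genes, held 5.48, 7.70 and 9.90 CPM at 0 mM and 73.7 and 19.9 CPM at 150 mM (log2 fold change 2.6 ± 0.56, adjusted p = 0.00780). Salt library 1 was the higher in all 3. KCS20, a fatty acid elongase, rose by 1.03 ± 0.23. Among 12 genes of the Casparian strip, the lignin band of the endodermis, edgeR called 0, with 2 at an unadjusted p under 0.05, and DESeq2 called 1 higher. CASP5, a membrane protein that positions the strip, came closest in edgeR with 7.87, 16.1 and 10.0 CPM at 0 mM and 24.5 and 24.1 CPM at 150 mM (log2 fold change 1.1 ± 0.40, adjusted p = 0.0708), and without 0 mM library 3 it was called (1.44). CASP2 was at -0.50 ± 0.23 (adjusted p = 0.147). The endodermis markers summed to 593.3, 590.7 and 496.8 CPM at 0 mM and 426.4 and 541.9 CPM at 150 mM, with 1 of 8 called lower and none at 0. Their part in these results was not tested. GPAT5, GPAT7, MYB41 and KCS20 lost their calls without 150 mM library 1, at log2 fold changes of 0.92, 1.05, 1.36 and 0.60. MYB41 moved to 3.27 without 150 mM library 2.

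Root hair genes were lower in 13 of 28, with 0 higher (median -0.71; 0 without 150 mM library 1 and 14 without library 2). MRH6, a gene of root hair growth, held 26.4, 14.1 and 13.8 CPM at 0 mM and 2.87 and 6.23 CPM at 150 mM (log2 fold change -1.99 ± 0.40, adjusted p = 0.00540). EXPA18, a wall-loosening expansin of hair cells, held 49.6, 28.8 and 34.2 CPM at 0 mM and 18.1 and 19.4 CPM at 150 mM (log2 fold change -1.0 ± 0.20, adjusted p = 0.00492). RHS18, a root hair specific peroxidase, held 33.0, 18.7 and 21.4 CPM at 0 mM and 6.32 and 10.3 CPM at 150 mM (log2 fold change -1.55 ± 0.32, adjusted p = 0.00544). In all 3 genes 0 mM library 1 was the highest, and both salt libraries lay below every control. ADF11, an actin depolymerising factor of hairs, fell by 1.09 ± 0.24. Of the 8 root hair cell markers, 7 of which are on this list too, 5 were lower, and the 8 summed to 423.2, 289 and 324.6 CPM at 0 mM and 167.1 and 218.4 CPM at 150 mM. The 3 that were not called were EXPA7 (0.07), RSL4 (0.08) and RHD6 (-0.16), the last 2 of them transcription factors of hair formation. Of the 12 defining root markers 3 were lower and 0 higher, and they summed to 13852, 9381 and 12227 CPM and then 7306 and 8554 CPM. Most of that sum was PYK10, a beta-glucosidase, with 12522, 8389 and 11201 CPM at 0 mM and 6740 and 7593 CPM at 150 mM (adjusted p = 0.0903). Both cortex markers together held 15.9, 18.6 and 19.3 CPM and then 5.50 and 9.60 CPM, with 1 of 2 lower. The 8 pericycle and phloem markers summed to 154.3, 171.8 and 230.5 CPM and then 314.5 and 266.2 CPM, where SUC2 was the 1 called. Endodermis markers, with 1 of 8 lower, summed to 496.8 to 593.3 CPM and then 426.4 and 541.9 CPM, and meristem markers, with 1 of 8 higher, to 94.6 to 104.9 CPM and then 135.6 and 105.5 CPM. Non-hair epidermis and root cap markers summed to 65.3 to 77.3 CPM at 0 mM and 64.6 and 66.0 CPM at 150 mM, and xylem markers to 401.3 to 510 CPM and 452.8 and 492 CPM, with 0 called in either set. The part of these cell types in the results was not tested. MRH6, EXPA18, RHS18 and ADF11 lost their calls without 150 mM library 1, at log2 fold changes of -1.55, -0.95, -1.24 and -0.85. MRH6 moved to -2.65 without 150 mM library 2.

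Patterning and division genes moved by less. Of 20 root patterning genes 4 were lower and 0 higher (median -0.20; 0 lower without 150 mM library 1 and 3 without library 2). SHR, the mobile factor that specifies endodermis, held 34.6, 40.5 and 32.5 CPM at 0 mM and 24.0 and 24.7 CPM at 150 mM (log2 fold change -0.56 ± 0.16, adjusted p = 0.0253). Its partner SCR held 60.0, 58.8 and 44.2 CPM at 0 mM and 35.5 and 37.7 CPM at 150 mM (log2 fold change -0.57 ± 0.16, adjusted p = 0.0222). JKD, a zinc finger protein that binds both, fell by 0.54 ± 0.12, and REV, a vascular homeodomain factor, fell by 0.55 ± 0.13. Cell cycle and replication genes had 2 higher and 6 lower of 38 (median -0.32; 0 and 0 without 150 mM library 1, 3 and 3 without library 2). MCM3, of the replicative helicase, held 26.7, 26.8 and 21.0 CPM at 0 mM and 12.8 and 13.7 CPM at 150 mM (log2 fold change -0.90 ± 0.18, adjusted p = 0.00425). The 2 higher members encode inhibitors of cyclin-dependent kinases. ICK1 (KRP1) held 4.16, 3.08 and 5.84 CPM at 0 mM and 10.9 and 10.3 CPM at 150 mM (log2 fold change 1.28 ± 0.29, adjusted p = 0.00872), and KRP4 (AT2G32710) rose by 0.71 ± 0.17. A related inhibitor, KRP2, fell by 0.63 ± 0.17. Meristem markers summed to 94.6 to 104.9 CPM at 0 mM and 135.6 and 105.5 CPM at 150 mM, with 1 of 8 higher. JKD, REV, MCM3 and ICK1 lost their calls without 150 mM library 1, at log2 fold changes of -0.53, -0.44, -0.86 and 1.24. SHR and SCR lost their calls without 150 mM library 1, 150 mM library 2, 0 mM library 1 or 0 mM library 3, at -0.54, -0.57, -0.58 and -0.46 (SHR), and -0.53, -0.60, -0.49 and -0.51 (SCR). KRP4 lost its call without 150 mM library 1 or 0 mM library 1, at 0.70 and 0.56. KRP2 lost its call without 150 mM library 1, 0 mM library 1 or 0 mM library 3, at -0.48, -0.54 and -0.58.

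Hormones other than ABA changed at single steps. Of 30 auxin genes 4 were higher and 4 lower (13.33% each), against 9.29% and 7.35% over all genes tested. The median was 0.20, with 0.076 without 150 mM library 1 and 0.077 without library 2. LAX3, an auxin influx carrier of lateral root emergence, held 192, 170.2 and 138 CPM at 0 mM and 62.5 and 83.8 CPM at 150 mM (log2 fold change -1.19 ± 0.18, adjusted p = 0.00123) and was called with any 1 WT library left out. WES1 (GH3.5), which conjugates auxin to amino acids, held 23.7, 19.3 and 29.1 CPM at 0 mM and 91.5 and 78.5 CPM at 150 mM (log2 fold change 1.82 ± 0.27, adjusted p = 0.00125) and was called with any 1 WT library left out. IAA2, an auxin-induced repressor, rose by 0.89 ± 0.16 and was called with any 1 WT library left out. AUX1, the main influx carrier of the root tip, fell by 0.60 ± 0.15. AUX1 lost its call without 150 mM library 1, at a log2 fold change of -0.51.

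Of 27 cytokinin genes 4 were higher and 1 lower (median -0.09; 1 and 0 without 150 mM library 1, 4 and 2 without library 2). LOG5, which releases active cytokinin from its nucleotide, held 0.536, 1.56 and 2.33 CPM at 0 mM and 27.2 and 12.8 CPM at 150 mM (log2 fold change 3.76 ± 0.51, adjusted p = 0.00107). LOG1, of the same family, rose by 2.44 ± 0.49, and the response regulator RR16 by 3.07 ± 0.60. IPT3, the nitrate-responsive synthesis gene, held 36.1, 13.3 and 11.8 CPM at 0 mM and 1.55 and 5.21 CPM at 150 mM (log2 fold change -2.59 ± 0.60, adjusted p = 0.0109). Gibberellin genes were higher in 4 of 21 and lower in 0 (median 0.30; 0 without 150 mM library 1 and 5 without library 2). GA2OX2 and GA2OX6, whose enzymes inactivate gibberellin, rose by 2.03 ± 0.41 and 0.88 ± 0.22. GA2, of an early synthesis step, rose by 0.61 ± 0.15, and the DELLA repressor gene RGL3 by 1.1 ± 0.36. LOG1, RR16, IPT3, GA2OX2, GA2OX6 and GA2 lost their calls without 150 mM library 1, at log2 fold changes of 2.07, 2.72, -1.97, 0.99, 0.81 and 0.42. RGL3 lost its call without 150 mM library 1, 0 mM library 1 or 0 mM library 3, at 0.28, 0.87 and 0.98. LOG5 moved to 3.11 without 150 mM library 1. LOG1 moved to 3.2 without 0 mM library 4. RR16 moved to 4.08 without 0 mM library 1. IPT3 moved to -3.70 without 150 mM library 2 and -1.89 without 0 mM library 1. GA2OX2 moved to 2.64 without 150 mM library 2.

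Ethylene genes had 3 higher and 1 lower of 19 (median 0.26; 0 and 0 without 150 mM library 1, 4 and 2 without library 2). The receptor gene ERS2 held 4.97, 6.55 and 14.2 CPM at 0 mM and 29.6 and 18 CPM at 150 mM (log2 fold change 1.47 ± 0.33, adjusted p = 0.00887), and its relative ERS1 rose by 0.44 ± 0.12. ACS2, which makes the ethylene precursor, rose by 0.95 ± 0.29. Jasmonate genes had 2 higher (8.333%) and 3 lower (12.5%) of 24 (median 0.11), against 9.29% and 7.35% over all genes tested. Their split was 6 higher and 0 lower without 150 mM library 2, at a median of 0.53, and without library 1 it was 0 and 0 at -0.41. The direction of this list therefore differed between the salt libraries. JAZ7, a jasmonate repressor, rose by 1.85 ± 0.50, and JAZ12 by 0.59 ± 0.17. The allene oxide cyclase genes AOC3 and AOC4 fell by 0.76 ± 0.22 and 0.57 ± 0.17. ERS2 lost its call without 150 mM library 1, at a log2 fold change of 1.07. ERS1 and JAZ12 lost their calls without 150 mM library 1, 0 mM library 1 or 0 mM library 3, at 0.34, 0.44 and 0.41 (ERS1), and 0.33, 0.53 and 0.55 (JAZ12). ACS2 lost its call without 150 mM library 1, 0 mM library 3 or 0 mM library 4, at 0.62, 0.80 and 0.95. JAZ7 lost its call without 150 mM library 1 or 0 mM library 1, at 1.48 and 1.89. AOC3 and AOC4 lost their calls without 150 mM library 1, 150 mM library 2, 0 mM library 1 or 0 mM library 3, at -1.03, -0.52, -0.77 and -0.63 (AOC3), and -0.74, -0.42, -0.64 and -0.47 (AOC4).

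Among the hypoxia and fermentation genes 4 were higher and 2 lower of 17 (median -0.13; 3 and 0 without 150 mM library 1, 4 and 2 without library 2). ADH1, the alcohol dehydrogenase that also responds to ABA and dehydration, held 9.96, 16.2 and 27.4 CPM at 0 mM and 161 and 103 CPM at 150 mM (log2 fold change 2.88 ± 0.40, adjusted p = 0.00116) and was called with any 1 WT library left out. RAP2.2, an ethylene response factor of low oxygen, held 80.7, 87.9 and 116 CPM at 0 mM and 314 and 216 CPM at 150 mM (log2 fold change 1.48 ± 0.20, adjusted p = 0.000924) and was called with any 1 WT library left out. RBOHD, an oxidase that makes superoxide in defence and on this list for low oxygen, fell by 0.79 ± 0.17. Antioxidant genes went both ways, with 4 higher (11.43%) and 6 lower (17.14%) of 35, against 9.29% and 7.35% over all genes tested. Their median was 0.02, with 0.04 without 150 mM library 1 and 0.006 without library 2. MDAR4, a peroxisomal monodehydroascorbate reductase, held 85.5, 81.5 and 111 CPM at 0 mM and 196 and 198 CPM at 150 mM (log2 fold change 1.08 ± 0.20, adjusted p = 0.00325) and was called with any 1 WT library left out. CAT1, a catalase induced by ABA, held 13.8, 28.9 and 53.6 CPM at 0 mM and 121 and 87.1 CPM at 150 mM (log2 fold change 1.70 ± 0.38, adjusted p = 0.00990). DHAR2, a dehydroascorbate reductase, fell by 1.05 ± 0.21, and MSRB9, a methionine sulfoxide reductase, fell by 2.1 ± 0.47. RBOHD, CAT1 and DHAR2 lost their calls without 150 mM library 1, at log2 fold changes of -0.70, 1.44 and -0.85. MSRB9 lost its call without 150 mM library 1 or 150 mM library 2, at -2.22 and -1.99. CAT1 moved to 2.29 without 0 mM library 4.

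Heat shock and unfolded protein genes had 1 higher and 3 lower of 20 (median -0.30; 0 and 0 without 150 mM library 1, 1 and 2 without library 2). CNX1 and BIP1, chaperones of the endoplasmic reticulum, fell by 1.07 ± 0.28 and 0.77 ± 0.23. HSP70 fell by 0.77 ± 0.24, and the heat shock factor gene HSFB2A rose by 1.03 ± 0.27. Senescence and autophagy genes were higher in 5 of 22 and lower in 0 (median 0.46; 1 and 0 without 150 mM library 1, 4 and 1 without library 2). NYC1, a chlorophyll b reductase, held 4.83, 5.88 and 14.7 CPM at 0 mM and 29.4 and 31.8 CPM at 150 mM (log2 fold change 1.86 ± 0.45, adjusted p = 0.0138). Its levels moved with the green shoot markers given above, and their part in it was not tested. NAC6 (ORE1), the senescence factor, rose by 1.23 ± 0.31. Of 22 cytosolic ribosome genes edgeR called 0, with 1 at an unadjusted p under 0.05, and DESeq2 called 1 lower (median -0.05). SAG24, a ribosomal protein gene with the lowest adjusted p there, was at -0.49 ± 0.17 (adjusted p = 0.0592) and was called without 0 mM library 4 (-0.54). CNX1 and HSFB2A lost their calls without 150 mM library 1 or 0 mM library 1, at -0.86 and -0.83 (CNX1), and 0.63 and 0.88 (HSFB2A). BIP1, NYC1 and NAC6 lost their calls without 150 mM library 1, 0 mM library 1 or 0 mM library 3, at -0.59, -0.57 and -0.81 (BIP1), and 1.91, 1.58 and 1.65 (NYC1), and 0.98, 1.09 and 1.18 (NAC6). HSP70 lost its call without 150 mM library 1, 150 mM library 2, 0 mM library 1 or 0 mM library 3, at -0.62, -0.93, -0.66 and -0.83. NYC1 moved to 2.52 without 0 mM library 4.

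Clock genes were higher in 9 of 22 and lower in 0 (median 0.77; 3 higher without 150 mM library 1 and 8 without library 2). CCA1, the MYB factor that peaks around dawn, held 11.6, 12.1 and 21.1 CPM at 0 mM and 81.3 and 75.1 CPM at 150 mM (log2 fold change 2.39 ± 0.36, adjusted p = 0.00141). RVE1, a related dawn factor that links the clock to auxin, held 5.15, 4.34 and 8.97 CPM at 0 mM and 32.8 and 26.8 CPM at 150 mM (log2 fold change 2.28 ± 0.39, adjusted p = 0.00258). LNK1 (AT5G64170), a coactivator that works with these factors, rose by 0.93 ± 0.16. CCA1, RVE1 and LNK1 were called with any 1 WT library left out, and in CCA1 and RVE1 the salt libraries were closer to each other than in most genes above. BOA (NOX), a GARP factor that activates CCA1, rose by 2.24 ± 0.44. The labels state no time of day for the harvest, and a difference in harvest time between groups cannot be told apart from salt. BOA lost its call without 150 mM library 1, at a log2 fold change of 1.59.

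Isoprenoids arise from a plastid route, the MEP pathway, and a cytosolic route through mevalonate. Of 21 MEP and carotenoid genes 6 were higher and 0 lower (median 0.19; 1 without 150 mM library 1 and 5 without library 2). PSY, the phytoene synthase that opens the carotenoid route to ABA, held 8.96, 10.3 and 12.4 CPM at 0 mM and 25.8 and 20.6 CPM at 150 mM (log2 fold change 1.14 ± 0.19, adjusted p = 0.00163) and was called with any 1 WT library left out. BETA-OHASE 1, a carotene hydroxylase on the way to zeaxanthin, held 5.88, 10.5 and 16.0 CPM at 0 mM and 86.9 and 40.1 CPM at 150 mM (log2 fold change 2.56 ± 0.42, adjusted p = 0.00202). ZDS, a carotene desaturase, rose by 0.91 ± 0.21, and DXR, an early MEP enzyme, by 0.58 ± 0.15. Cytosolic mevalonate and triterpene genes were lower in 4 of 21 and higher in 0 (median -0.16; 1 lower without 150 mM library 1 and 4 without library 2). THAS1, which makes the root triterpene thalianol, held 993, 708 and 795 CPM at 0 mM and 373 and 307 CPM at 150 mM (log2 fold change -1.29 ± 0.24, adjusted p = 0.00320) and was called with any 1 WT library left out. Its cluster neighbours CYP708A2 and CYP705A5, which oxidise thalianol, fell by 1.13 ± 0.23 and 1.18 ± 0.27. HMGS, of the mevalonate route, fell by 0.79 ± 0.16. BETA-OHASE 1, ZDS, CYP708A2 and HMGS lost their calls without 150 mM library 1, at log2 fold changes of 1.89, 0.92, -1.20 and -0.85. DXR lost its call without 150 mM library 1, 0 mM library 1 or 0 mM library 3, at 0.54, 0.49 and 0.51. CYP705A5 lost its call without 150 mM library 1 or 150 mM library 2, at -1.34 and -1.02.

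**Figure D5:**
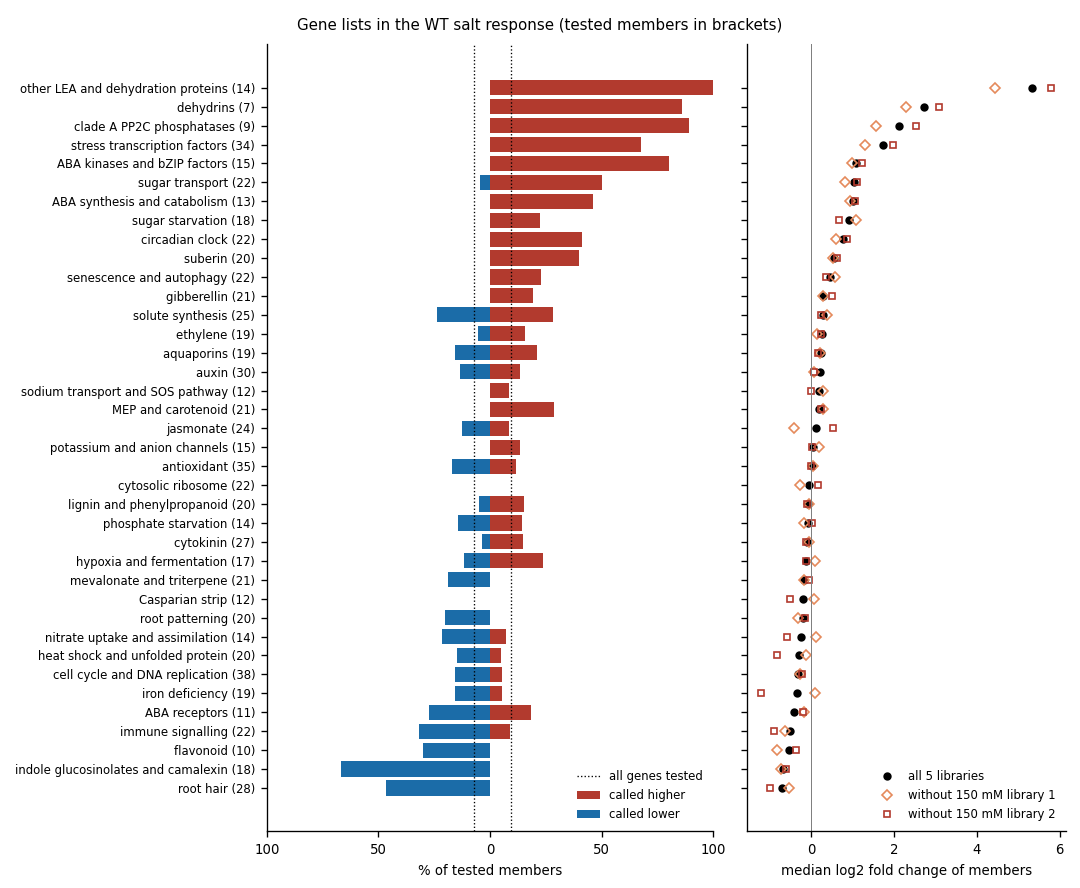
For each of the 38 gene lists, the left panel gives the percent of tested members called higher (red) and lower (blue) in WT roots at 150 mM, with dotted lines at the share over all 21367 genes (9.29% higher, 7.35% lower), and the right panel gives the median log2 fold change with all 5 libraries and with either salt library left out. The LEA, phosphatase, dehydrin and ABA kinase lists reach the highest shares on the higher side, and the indole glucosinolate and root hair lists on the lower side.

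The salt response of WT was then set beside that of C4 and B2, which share the spread estimate but not the control libraries. A test of the difference of the salt responses called 0 genes for C4 minus WT in edgeR (775 at an unadjusted p under 0.05; 6 by DESeq2) and 0 for B2 minus WT (967 at an unadjusted p under 0.05; 1 by DESeq2). Without 150 mM WT library 2, the library that goes against its label, 2 genes were called for C4 and 95 for B2. Of the 3555 genes called in WT, 3502 had the same sign in C4 and 3490 in B2 (3489 without B2 0 mM library 3, which goes against its label). The same-sign share over all genes tested was not counted. Nor was the count repeated without WT 150 mM library 2, whose MRD1 level is that of the lines. The higher genes had medians of 0.97 (WT), 0.68 (C4) and 0.71 (B2), and the lower genes -0.92, -0.63 and -0.63. These genes were chosen on WT values, so a larger median in WT follows in part from the choice. In the order WT, C4 and B2, LTI65 rose by 6.22 ± 1.03, 5.53 ± 0.97 and 5.61 ± 0.98, and LEA7 by 6.66 ± 0.91, 5.10 ± 0.83 and 5.48 ± 0.85. CYP81F2 had log2 fold changes of -3.38 ± 0.75, -2.12 ± 0.60 and -2.04 ± 0.60. HAI3 rose by 6.48 ± 0.80, 4.97 ± 0.73 and 5.08 ± 0.75, and CCA1 by 2.39 ± 0.36, 1.28 ± 0.32 and 1.43 ± 0.33. NIR1 and NIA1, added after their values were seen, stood at log2 fold changes of -1.45 ± 0.32, -0.05 ± 0.28 and -0.34 ± 0.28 and of -1.90 ± 0.43, -0.28 ± 0.36 and -0.75 ± 0.36, and neither was called in C4 or B2. Their differences from WT had unadjusted edgeR p-values of 0.00427 (NIR1) and 0.0101 (NIA1) for C4 and 0.0174 and 0.0538 for B2, and did not pass the adjustment (adjusted p = 0.9999 for C4 and 0.916 for B2). Without B2 0 mM library 3 the B2 values were 5.24 (LTI65), 5.36 (LEA7), -1.92 (CYP81F2), 5.13 (HAI3), 1.13 (CCA1), -0.42 (NIR1) and -0.92 (NIA1), and 0 genes were called for B2 minus WT (797 at an unadjusted p under 0.05).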

How the data were processed

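The table deposited by the authors holds raw counts of reads per gene, from featureCounts 2.0.3 (per the file headers). Exons of Araport11 models were counted in the reverse strand setting (2), above a mapping quality minimum of 10. Each read of a pair was counted, and reads that match several places were not, so near-identical gene copies can be undercounted. Per the submitters' processing notes, STAR 2.7.11a, fastp and FastQC 0.12.1 were used with TAIR10. The 17 genes that differed between WT libraries 1 and 2 at 0 mM were left out.

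Counts were tested with edgeR 4.0.16 (R 4.3.3; TMM scaling, low-count filter, robust quasi-likelihood fit, 1 mean per group over 17 libraries, two-sided, Benjamini-Hochberg over 21367 genes). The WT contrast was 150 minus 0 mM, and the SE is the log2 fold change divided by the root of F. The design had been written with 18 samples. The test of the WT contrast was checked on simulated data, and the tests of a difference of salt responses were not. TPM used the deposited gene lengths. Promoter windows are 250 bases before the annotated start in the RefSeq genome, whose gene spans equal those of the table in 99.72% of genes. Members and lists were chosen with earlier results of these data known. The 38 lists held 750 tested members. Named genes were, per direction, the 12 called genes with the widest gap between the closest libraries of the groups on log2 CPM (prior count 2, mean of at least 5 CPM), the 4 members of each list lowest in adjusted p, and SOS1, HKT1, LTI78, LTI65, NCED3, P5CS1, HAI1 and SUS1. Alternatives were DESeq2 1.42.0 as test or for size factors, no filter, no robust fit, WT libraries alone, the near copy counted, and each library left out. A single gene, counted in its list, is not reported by name here.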

Additional observations from a re-analysis of the deposited data

How the results depend on the processing

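The WT count of 3555 genes was 3540 with DESeq2's size factors, 3450 without the filter, 3608 without the robust fit, 4607 with DESeq2 as the test, 3480 without B2 0 mM library 3 and 5171 with the near copy counted. It was 992 with the WT libraries alone, where the spread rests on 5 libraries, and 330 to 4540 with 1 WT library left out. The difference of salt responses called 6 genes for C4 and 1 for B2 with DESeq2, and 0 to 8 and 0 to 95 with 1 library left out, where the cause was not tested. Of 155 called named genes, most were no longer called without 150 mM library 1, and fewer lost the call without 150 mM library 2. The call ended in 31 without 0 mM library 1, 25 without 0 mM library 3 and 2 without 0 mM library 4. With the WT libraries alone it ended in 65. None of the 155 called named genes changed direction in these settings. No lone library was fitted without the shared spread, so with 1 salt library left it is assumed to vary like the other groups. No paired analysis was possible because the labels give no replicate numbers shared by the groups. Whether more reads or more libraries would bring smaller changes past the threshold was not tested.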

Other observations

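Grouped by the product names of the reference, 135 protein families had at least 15 tested genes, and a few moved mostly one way. Transporters of the ABC-2 type, carriers that include exporters of lipids and hormones, were higher in 9 of 16 genes with 0 lower (median log2 fold change 0.97; 1 higher without 150 mM library 1 and 10 without library 2). Auxin-responsive GH3 genes, which conjugate hormones to amino acids, were higher in 5 of 15 and lower in 1 (median 0.85; 3 and 0, and 2 and 1). RING/U-box genes, mostly ubiquitin ligases, were higher in 43 of 228 and lower in 12 (median 0.20; 2 and 2, and 35 and 13). Homeodomain-like genes, a family of transcription factors, were higher in 14 of 57 and lower in 1 (median 0.25; 3 and 0, and 10 and 1).

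On the lower side, class III peroxidases, which crosslink or loosen the wall, were lower in 18 of 57 and higher in 5 (median -0.43; 2 lower without 150 mM library 1 and 16 without library 2). Leucine-rich repeat protein kinases, many of them receptors at the cell surface, were lower in 30 of 109 and higher in 1 (median -0.43; 1 and 39 lower). Cysteine/histidine-rich C1 domain genes were lower in 23 of 108 and higher in 0 (median -0.62; 1 and 34 lower), and dirigent-like genes, which guide lignan and lignin coupling, in 6 of 21 with 0 higher (median -0.46; 1 and 6 lower). These families were picked after their counts were seen, against 9.29% higher and 7.35% lower over all genes tested.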
